A study of Mus musculus with 54 samples.

Results

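The transcriptomes of EMD -/y and wildtype H2K myogenic progenitors were compared 2 days after the start of differentiation. The members are all 17557 genes of the deposited table that sets these groups against each other, and no gene was chosen by its value. The table rests on 6 of the 54 samples of the series, with 3 labelled replicates per group, and it is 1 of 27 such tables. The study differentiated wildtype, emerin-null and transduced progenitors and the samples of this series are poly(A) RNA of days 0, 1, and 2.

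Both groups are H2K cells, conditionally immortalised mouse progenitors that carry a temperature-sensitive large T antigen under an interferon-inducible promoter and stop dividing when moved out of γ-interferon and to body temperature. The wildtype group has an intact X-linked emerin gene. The EMD -/y group comes from emerin-null male mice, and both were plated at the same density on gelatin, kept overnight in proliferative medium with γ-interferon, and then held for 48 hours in horse serum without it. Each genotype is represented by 1 line, so the effect of emerin and any other difference between the lines cannot be told apart. The methods describe 3 technical replicates for each of 2 biological replicates, and the labels do not say which of these the labelled replicates are. The table gives 1 group value per gene, a normalised count made by the authors from the replicates, and no value per replicate, so the differences below have no error and were not tested.

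Emerin is a LEM-domain protein of the inner nuclear membrane that binds lamins, the chromatin protein BAF, and the histone deacetylase HDAC3, and its loss causes X-linked Emery-Dreifuss muscular dystrophy. To form muscle, myogenic progenitors leave the cell cycle under the control of Rb and CDK inhibitors, switch on myogenin, align, fuse, and fill with sarcomeres. Genes of mitosis are silenced during this exit by complexes that bind promoter motifs called CHR elements.

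At day 2, 628 genes were at least 2-fold higher and 376 at least 2-fold lower in EMD -/y progenitors, which is 3.58% and 2.14% of the table. A gene is called higher or lower here when the log2 ratio of the group values, each plus 1, was at least 1 in size and the higher value was at least 10, and folds are given from the same ratio. Genes of mitosis were the list with the highest median, with 26 of 52 higher and none lower. The lists were chosen with earlier results of these data known, so ranks among them are descriptions only. The regulators and structural genes of muscle were, for the most part, within 2-fold of wildtype. Matrix glycoproteins, the IGF axis, and imprinted genes had log2 ratios mostly above 0, and interferon-response genes mostly below 0.

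The targeted gene was examined first. Emd had a group value of 987 in wildtype and 2.35 in EMD -/y, a 295-fold difference. Its log2 ratio was -8.20 at day 2, -8.75 at day 0, and -9.00 at day 1, so the labels match the genotype on each day. Emd lies at chrX:74254674-74261563 (GRCm38, the build of mm10). Of the 38 other genes within 1 Mb on either side that passed the filter of 10, 2 were higher and none was lower. These are Renbp, which encodes renin-binding protein, at 548 and 1279.5, and the gene model Gm44504, at 8.71 and 21.2. Both were chosen after their values were seen. In +EMD progenitors, which are EMD -/y cells transduced with wildtype emerin and compared with the same wildtype libraries, Emd was at 1.55, so the introduced emerin is not seen in this RNA value, which does not show how much emerin protein the line makes. By Western blot of proliferating cells, the paper reports emerin protein in +EMD close to the wildtype level.

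Values near 0 need care. Emd is not listed in the table that holds only the EMD -/y libraries of days 1 and 2, although it has 2.35 here. In all, 299 of the 17557 genes were not listed there, and 40 of these still had a value of at least 1 in EMD -/y, up to 11.3, with 21 of the 299 called lower. In the same way, 689 genes were not listed in the wildtype table of days 1 and 2, and 33 of these had a value of at least 1 in wildtype, up to 25.7, with 8 called higher. No gene had a value of 0 in either group. The 6 most common pairs of low values were shared by between 84 and 231 genes each, and in each pair wildtype and EMD -/y differed by little, as in 0.158 and 0.173 for 231 genes. The average of each pair multiplied by the 6 libraries gave between 0.939 and 1.12, about the value of 1 read in 1 library, yet the group without the read was not at 0. How the group values were computed is not stated, so the fold of a gene that is nearly absent from 1 group may be understated, and this was not tested. The depth per library is not known, but the group values summed to 18026500 in wildtype and 18760400 in EMD -/y, and the 10 highest genes held 8.88% and 10.1% of these sums.

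The same difference was taken at days 0 and 1, from libraries not used at day 2. At day 0, 664 of 17486 genes were higher and 509 lower (3.8% and 2.91%), and at day 1, 618 of 17711 were higher and 376 lower (3.49% and 2.12%). Of the 628 genes higher at day 2, 294 (46.8%) were also higher at day 0 and 362 (57.6%) at day 1, and 258 were higher on all 3 days. Among the 376 lower genes, 212 (56.4%) were also lower at day 0, 237 (63.0%) at day 1, and 184 on all 3 days. Not past the threshold in the same direction on either earlier day were 230 higher genes (36.6%) and 111 lower genes (29.5%). Past the threshold in the opposite direction were 3 higher genes at day 0 (Pttg1, Vegfd, and Ptn), 2 at day 1 (Pttg1 and Gm44504), and none of the lower genes. Without a threshold, the sign at day 0 was the same for 541 of 627 listed higher genes and 329 of 374 lower genes. At day 1 it was the same for 596 of 627 and 364 of 376. Vegfd, a growth factor gene of lymphatic vessels, was at 34.8 and 81.9, and Ptn, which encodes the growth factor pleiotrophin, at 23.2 and 81.5, both chosen after their values were seen. The median fold was 2.75 among the higher genes and 2.90 among the lower genes, and 51 and 105 of them differed at least 8-fold. The median log2 ratio over all 17557 genes was 0.01 on day 2, 0.01 on day 0, and 0.00 on day 1.

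**Figure D1:**
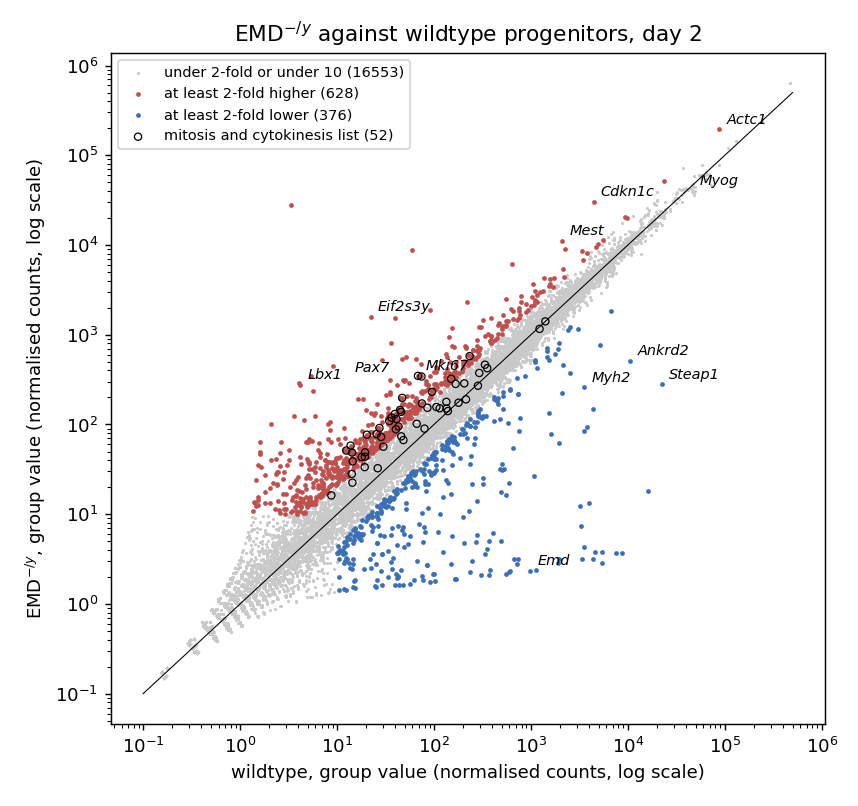
Group values of the 17557 genes in wildtype (x axis) and EMD -/y progenitors (y axis) at day 2, in normalised counts on log scales, with the 628 higher genes in red, the 376 lower genes in blue, and the 52 genes of the mitosis list circled. The circled genes lie on or above the diagonal, except for 4 with a log2 ratio just under 0.

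Mitosis was the process with the highest median of all lists, which were chosen with earlier results of these data known. All 52 genes of the mitosis and cytokinesis list passed the filter. Of these, 26 were higher, none was lower, and 48 had a log2 ratio above 0, with a median of 1.01 beside 0.01 over all genes. Under stricter limits the count of higher genes was 13 with a higher value of at least 100, and 12 at 3-fold. The summed value of the list was 7021 in wildtype and 10283 in EMD -/y. The difference was not there earlier, since the median of the list was -0.18 at day 0 and 0.05 at day 1, with none higher and only Pttg1 lower on those days. Whether more cells were in mitosis or each held more of these transcripts cannot be told apart in bulk RNA.

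Both lines shut the list down between days 1 and 2. In the wildtype table of days 1 and 2, the summed value went from 71259 to 7699, or 10.8% of its day 1 level, and in the EMD -/y table from 69433 to 11137, or 16.04%. At least a 2-fold fall was seen for 51 of the 52 genes in wildtype, with a median log2 change of -4.25, and for 50 in EMD -/y, with a median of -3.13. These tables share the day 2 libraries with the main comparison, so they restate the difference within each line. In +EMD progenitors, which also went through transduction and selection and are compared with the same wildtype libraries, the median of the list against wildtype was 3.09, above that of EMD -/y.

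Mki67, the proliferation antigen that coats mitotic chromosomes, was at 68.4 in wildtype and 348 in EMD -/y (5.03-fold higher). Bub1b, the checkpoint kinase BubR1, was at 47.01 and 198 (4.14-fold). The microtubule depolymerase Kif2c was at 13.8 and 58.2 (3.999-fold), and separase, encoded by Espl1, at 12.5 and 51.3 (3.89-fold). Further members with the same direction were the passenger protein survivin (Birc5, 20.3 and 76.99), the spindle proteins Hmmr (36.5 and 119) and Nusap1 (34.6 and 109), and the kinase Plk1 (45.8 and 138). Topoisomerase II (Top2a), which untangles chromosomes, was at 233 and 578. Plk1 and Top2a were chosen after their values were seen. Outside the list, the PCNA-associated factor Pclaf was at 19.9 and 146 (7.04-fold), and the spindle protein Ckap2l at 33.3 and 136 (3.99-fold). Bub3, the most abundant member, was at 1409 and 1409.

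Pttg1, which encodes securin, the inhibitor of separase, behaved unlike the other members. It was at 74.4 in wildtype and 343 in EMD -/y at day 2 (4.56-fold higher), but its log2 ratio was -1.86 at day 0 and -1.29 at day 1. From day 1 to day 2 it fell by 3.24 on the log2 scale in wildtype, while its log2 change in EMD -/y was 0.26.

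**Figure D2:**
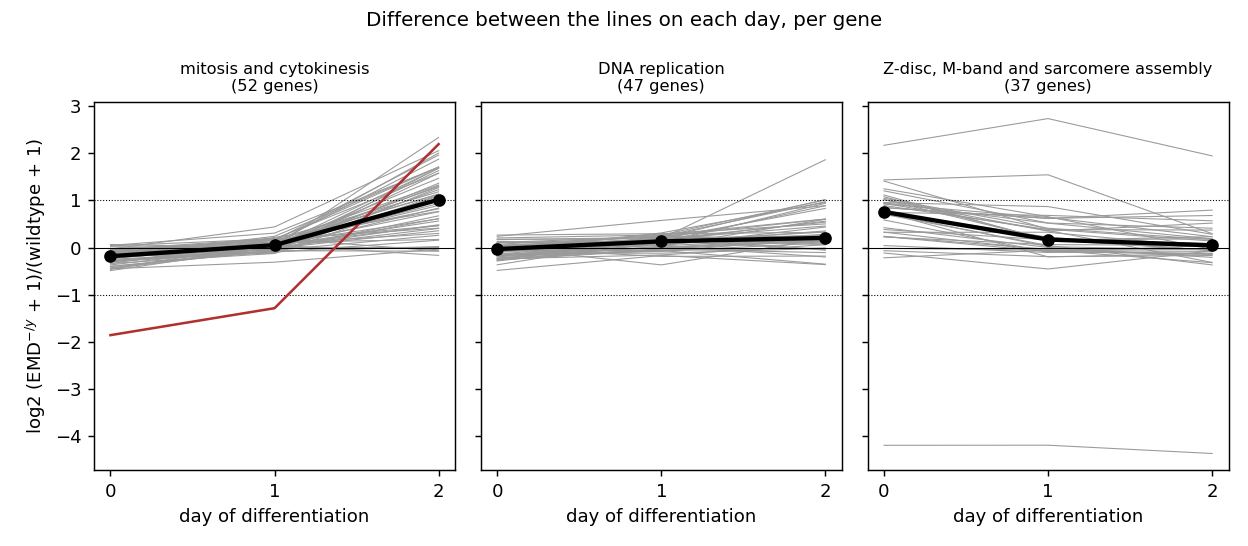
Log2 ratio of EMD -/y to wildtype (y axis, each value plus 1) on days 0, 1, and 2 (x axis) for each gene of 3 lists, with the list median as a black line, thresholds dotted, and Pttg1 in red. The mitosis median goes from -0.18 to 1.01, the DNA replication median stays between -0.03 and 0.20, and the Z-disc median falls from 0.75 to 0.04.

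Among the 30 listed cyclins, CDKs, and E2Fs, 5 were higher and none lower, with a median of 0.27, or 0.0794 without members that have a copy or overlap. The S and M phase cyclin gene Ccna2 was at 59.2 in wildtype and 210.2 in EMD -/y, although its reads may include those of the overlapping Exosc9. The mitotic cyclin genes Ccnb1 (44.7 and 145) and Ccnb2 (25.6 and 78.3), the repressor E2f7 (13.6 and 50.2), and the activator Mybl2 (11.5 and 24.9) were the others. Ccnb1 and Ccnb2 are also counted in the mitosis list. Ccnb1 and Mybl2 have near-identical copies, so their values are uncertain. Ccnd3, the most abundant cyclin gene, was at 12802 and 11169.

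DNA replication differed less than mitosis. Of 47 genes, 3 were higher and none lower, and the median was 0.20. These were thymidine kinase (Tk1, 18.7 and 70.3), the origin licensing factor Cdc6 (29.4 and 60.4), and the hemimethylated DNA reader Uhrf1 (148 and 298), of which Uhrf1 has a near-identical copy. The list's summed value at day 2 was 33.6% of its day 1 level in wildtype and 36.4% in EMD -/y. In the homologous recombination list, the recombination gene Rad51ap1 was higher (20.1 and 74.2) and the Fanconi anemia gene Fanca lower (61.3 and 30.1), with a median of 0.11 over 25 genes, or 0.00283 without those that have a copy or overlap.

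The genes that drive cell cycle exit were within 2-fold of wildtype, with 1 exception. Rb1, whose product holds E2F in check, was at 9006 and 7316, and the p21 gene Cdkn1a, which overlaps another gene, at 63733 and 60314. The exception was Cdkn1c, the imprinted gene of the CDK inhibitor p57, at 4422 in wildtype and 30397 in EMD -/y (6.87-fold higher). It overlaps the gene model Gm44732, so its reads may not all be its own, and it was already higher at day 0 (log2 ratio 4.15) and day 1 (2.80). The median of the 11 pocket proteins and CDK inhibitors was 0.00.

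The promoters of the mitosis list were searched for the CHR element, written TTTGAA or TTCGAA, and for the CCAAT box, written CCAAT, on both strands. RefSeq (GRCm38.p6) gave a promoter of 300 bases, from 250 before to 50 after a transcription start, for 46 of the 52 genes. The first listed start of each gene was used, which for some genes lies inside the longest gene model. The CHR letters were in 34 of these (73.9%) and CCAAT in 33 (71.7%), against 19.4% and 37.9% of the promoters of all 27025 genes. Both motifs were in 28 of the 46 (60.9%), against 7.70% of all promoters. For the 12697 promoters of genes listed at day 2, the shares were 14.6% for CHR, 38.7% for CCAAT, and 6.24% for both. Of the 24 higher members with a promoter, 19 held the CHR letters (79.2%), 16 CCAAT (66.7%), and 15 both (62.5%). These shares are close to those of the whole mitosis list. A match is a description of the letters, not a binding site or a cause. Pttg1, Birc5, and Nusap1, also higher, held neither motif in the promoter used. The promoters of 4 higher genes with at least 2 CHR matches and at least 1 CCAAT match each are shown, with both motifs in capitals. They lie at chr7:135716330-135716629 (minus strand) for Mki67, chr2:118597961-118598260 (plus strand) for Bub1b, chr11:99024140-99024439 (minus strand) for Top2a, and chr9:70421505-70421804 (minus strand) for Ccnb2.
Mki67: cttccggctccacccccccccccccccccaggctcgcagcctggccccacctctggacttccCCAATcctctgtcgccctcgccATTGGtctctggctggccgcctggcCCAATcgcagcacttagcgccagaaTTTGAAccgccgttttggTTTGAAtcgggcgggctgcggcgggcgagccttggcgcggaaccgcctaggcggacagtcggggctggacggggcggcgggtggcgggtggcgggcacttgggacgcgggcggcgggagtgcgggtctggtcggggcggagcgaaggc
Bub1b: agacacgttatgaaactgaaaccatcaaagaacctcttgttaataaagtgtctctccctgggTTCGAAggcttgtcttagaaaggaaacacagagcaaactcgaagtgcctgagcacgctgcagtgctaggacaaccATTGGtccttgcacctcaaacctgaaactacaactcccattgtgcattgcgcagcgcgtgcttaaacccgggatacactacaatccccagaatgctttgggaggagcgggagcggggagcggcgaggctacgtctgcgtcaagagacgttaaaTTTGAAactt
Top2a: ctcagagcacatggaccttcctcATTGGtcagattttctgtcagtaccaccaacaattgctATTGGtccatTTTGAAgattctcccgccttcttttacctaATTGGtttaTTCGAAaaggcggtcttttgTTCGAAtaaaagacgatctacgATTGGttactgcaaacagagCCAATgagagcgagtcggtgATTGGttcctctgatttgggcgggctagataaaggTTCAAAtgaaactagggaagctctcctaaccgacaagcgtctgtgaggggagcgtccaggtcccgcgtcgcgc
Ccnb2: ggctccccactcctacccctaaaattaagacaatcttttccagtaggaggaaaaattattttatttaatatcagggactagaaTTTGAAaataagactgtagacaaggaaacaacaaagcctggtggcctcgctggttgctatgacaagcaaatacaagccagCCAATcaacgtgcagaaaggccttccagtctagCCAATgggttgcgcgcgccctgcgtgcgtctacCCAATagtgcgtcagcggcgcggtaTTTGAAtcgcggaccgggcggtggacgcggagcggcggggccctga

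The myogenic program itself was on in both lines. Of 27 myogenic regulatory factors and partners, 2 were higher, none was lower, and the median was 0.16. Myogenin (Myog), which commits cells to differentiation, was at 46174 in wildtype and 40951 in EMD -/y, and Myod1 at 19259 and 17599.8. Pax7, the transcription factor of satellite cells and undifferentiated progenitors, was at 50.3 and 317 (6.203-fold higher), with log2 ratios of 1.21 at day 0 and 2.64 at day 1. Mdfi, an inhibitor of myogenic factors, was at 1.82 and 13.4. In +EMD, Pax7 was at 698 and Mdfi at 45.2.

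In 4 lists of sarcomere and calcium-handling genes, the median was above 0 at day 0 and near 0 by day 2. The median log2 ratio of the 37 Z-disc, M-band, and assembly genes was 0.75 at day 0, 0.17 at day 1, and 0.04 at day 2. For the 19 thin filament genes the medians were 0.70, 0.02, and -0.07, and for the 28 genes of excitation-contraction coupling 0.69, 0.14, and 0.02. The 13 myosin light chain and binding protein genes had 0.66, 0.19, and 0.00. The myosin heavy chains had medians of 0.78 at day 0, 0.58 at day 1, and 0.42 at day 2, the last of which was 0.0863 without members that have a copy or overlap. At day 2 the counts past the threshold in the 4 lists were small, with 1 higher and 1 lower in the first of these lists, 2 and 0 in the second, 3 and 0 in the third, and 1 and 1 in the fourth.

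Single muscle genes did differ. Among the 9 listed myosin heavy chains (median 0.42), Myh2, the fast IIa isoform, was at 3519 in wildtype and 259 in EMD -/y (13.5-fold lower), and the extraocular isoform Myh13 at 9.901 and 26.6 (2.53-fold higher). Myh2 shares a near-identical stretch with Myh1, which had 20109 and 38829, so the split of reads between them is uncertain. Per kb of transcript, embryonic Myh3 stood highest of the heavy chains in both groups, at 39932 and 42393, followed by perinatal Myh8, which has a near-identical copy, at 9561 and 12759. Cardiac actin (Actc1), which developing skeletal muscle also makes, was at 88051 and 195746 (2.22-fold higher), while skeletal Acta1 was at 242258 and 235499. Tmod4, which caps thin filaments, was higher (3.55 and 15.5).

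Ankrd2, a stretch-responsive partner of titin, was at 10550.5 and 512 (20.6-fold lower), with a log2 ratio between -4.36 and -4.19 on all 3 days. Xirp2, an actin-binding repeat protein of the Z-disc, was at 107 and 414 (3.84-fold higher). Mylk2, the skeletal myosin light chain kinase, was lower (157 and 46.4), and the fast myosin-binding protein Mybpc2 higher (38.1 and 109.6). In the calcium list, the buffer parvalbumin (Pvalb) was at 18.4 and 191 (9.903-fold higher, uncertain because its values differed between tables), and the potassium channel Kcnj2, which sets the resting potential of fusing myoblasts, at 2.57 and 47.7 (13.6-fold higher). The same wildtype libraries gave Kcnj2 0.788 and 0.775 in other tables, so the size of its fold is uncertain. Ryr3, the second calcium release channel of young muscle, was at 152 and 346 but overlaps Aven.

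Fusion, synapse, and membrane-complex genes were close to wildtype. Of 25 fusion and adhesion genes 1 was higher, Mcam (216 and 727), an adhesion protein of myogenic progenitors, and the fusion gene Mymk was at 46617 and 44129, with a list median of -0.04. Of 14 synapse genes 1 was lower, Colq (298 and 120.3), the collagen tail of acetylcholinesterase, which overlaps a gene model, and the median was -0.09. Of 20 dystrophin complex genes 1 was higher, and the median was 0.01.

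Emerin's own partners at the nuclear envelope did not differ by 2-fold. Apart from Emd, none of the 27 lamina, LEM-domain, and LINC genes was past the threshold, and the median was 0.02. Lmna, the lamin A/C gene, was at 17938 and 16820.1, and the LEM-domain genes Lemd2, Lemd3, and Tmpo were at 637 and 616, 399 and 399, and 4759 and 5032. None of the 20 genes of a list of histone deacetylases, NCoR subunits, and 4 Polycomb genes was past the threshold either, with a median of -0.09. Hdac3 was at 1385 and 1287, and the corepressor Ncor1 at 3881 and 3667.

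In the lists of extracellular matrix genes, as in the whole table, more genes were higher than lower at day 2, except among the integrins. For the proteoglycans this rests on 1 gene. Of 43 matricellular and adhesive glycoproteins, 10 were higher and none lower, with a median of 0.51 at day 2, 0.08 at day 0, and 0.26 at day 1, and their summed value was 57705 in wildtype and 88303 in EMD -/y. They include the elastic fiber protein Emilin1 (171 and 499), tenascin C (Tnc, 762 and 1833), periostin (Postn, 661 and 1487), and the IGF-binding proteins Igfbp2 (785 and 2678) and Igfbp4 (255 and 675). The value of Igfbp4 differed between tables by more than 0.2 on the log2 scale and is uncertain. In +EMD, Tnc and Postn were at 396 and 137, below wildtype, while Emilin1, Igfbp2, and Igfbp4 were at 303, 3134, and 875, above it, and the list median was 0.14.

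Of 44 collagens, 8 were higher and 1 lower, with a median of 0.20 and summed values of 74797 and 103949. The calls of Col1a1, Col12a1, and Col4a2 depend on the scaling. Their log2 ratios of 1.04, 1.03, and 1.00 fall below the threshold with both groups scaled to the same total. Col1a1, a chain of fibrillar type I collagen, was at 4966 and 10210.2, with log2 ratios of 0.03 at day 0, 0.92 at day 1, and 1.04 at day 2. The type VI chains Col6a3 (473 and 1346) and Col6a6 (2.39 and 29.5), the basement membrane zone collagens Col19a1 (280.3 and 741) and Col7a1 (71.02 and 155), and fibrillar Col11a1 (64.3 and 138) were also higher. The transmembrane collagen Col23a1 was lower, at 873 and 349.9. The values of Col11a1 and Col23a1 differed between tables and are uncertain.

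In the basement membrane list, 3 of 21 genes were higher and none lower (median 0.19). Sparc, a collagen-binding glycoprotein, was at 23666 and 51669, the laminin chain gene Lama4 at 57.5 and 118, and Frem1 at 5.94 and 33.9. Of 30 proteoglycans and syndecans (median 0.20), Cspg4 alone was higher, at 47.5 and 315 (6.502-fold). That list had 1 higher and 3 lower at day 0, and 1 higher and 2 lower at day 1. Of 36 matrix proteases, inhibitors, and lysyl oxidases, 5 were higher and none lower (median 0.31). They include the collagen cross-linking enzymes Loxl1 (1227 and 3000.3) and Loxl2 (251 and 669) and the proteases Adamts9 (9.36 and 30.7) and Mmp23 (36.9 and 97.4). Loxl2, which also has a copy, is uncertain because its values differed between tables. Among 25 integrins, the laminin receptor chain Itga3 was higher (660.1 and 1824) and the leukocyte chain Itgad lower (17.3 and 5.68, with a copy in Itgax and an overlapping gene model), with a median of 0.04.

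Of 17 genes of the IGF axis, 7 were higher and none lower, with a median of 0.55. Igf1 was at 337 and 978 (2.89-fold), the adaptor Irs2 at 36.1 and 102, Igfbp3 at 1546 and 3459, and Igf2bp3, an RNA-binding protein named for its binding to Igf2 mRNA, at 161 and 739 (4.58-fold), though it overlaps Malsu1. Of the 7, 4 are IGF-binding proteins that the matricellular list also counts. Igf2 itself, which overlaps another gene, was at 108282 and 121867, with log2 ratios of 1.07 at day 0, 0.47 at day 1, and 0.17 at day 2.

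All 20 listed imprinted genes had a log2 ratio above 0, 6 of them past the threshold, and the median was 0.78 at day 2, 0.85 at day 0, and 0.66 at day 1. Mest was at 2101 and 11124 (5.29-fold higher), with overlap with Copg2, the zinc finger gene Plagl1 at 547 and 2489 (4.54-fold), and the amino acid transporter Slc38a4 at 22.96 and 102 (4.297-fold). Dlk1, which encodes a Notch-like inhibitor of differentiation, was at 6.67 and 48.04 (6.39-fold). In +EMD the median of the list was 0.01, with Mest at 20745 and Dlk1 at 1.33.

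Of 45 TGF-β and BMP genes, 4 were higher and 1 lower (median 0.05). The BMP antagonist Grem1 (43.2 and 146), the ligand Gdf5 (17.4 and 69.3), and the myostatin receptor Acvr2b (19.7 and 48.9) were among the higher genes, and the ligand Bmp4 was lower (26.1 and 10.3). The values of Bmp4 differed between tables, and Gdf5 overlaps a gene model. Of 46 Wnt genes 3 were higher and 3 lower (median 0.02). The receptor Fzd4 (28.5 and 123), the ligand Wnt10b (12.97 and 49.4), and the feedback inhibitor Nkd1 (16.7 and 39.9) were higher. The secreted inhibitor Sfrp2 (261 and 60.8, overlapping a gene model), the ligand Wnt10a (517 and 206), and the receptor Fzd1 (1099 and 496) were lower.

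Counts in other signalling lists are given next, beside 3.58% higher and 2.14% lower over all genes. In the Notch list, Dlk1 and the target gene Hey2 (4.85 and 11.9, uncertain between tables) were higher among 22 (median 0.04). In the Hippo and Yap target list, 4 of 30 were higher (median 0.07), namely Birc5, the transmembrane BMP regulator Crim1 (53.1 and 205), tissue factor F3 (26.7 and 69.1), and Ccn2 (194 and 392), while Yap1 was at 2261 and 2501. Crim1 and Ccn2 differed between tables, and Birc5 is also counted in the mitosis list. Of 27 SRF and actin genes, the actin-binding Tagln2 was higher (452 and 924, median 0.24), and of 44 ERK and receptor kinase genes, the growth factor Fgf1 (5.27 and 14.3, median 0.01). The p53 list of 28 had a median of -0.14, with 2 higher, among them Igfbp3, and the exonuclease Aen lower (2519 and 1222).

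Genes of secretory stress and lipid synthesis had ratios mostly above 0 at day 2, nearly all within 2-fold. The median of the 27 ATF4 and unfolded protein response genes was 0.44 at day 2, 0.02 at day 0, and -0.02 at day 1, and 24 of 27 had a ratio above 0. Only Pdia4, a disulfide isomerase of the endoplasmic reticulum, was past the threshold, at 3762 and 8145, while the chaperone Hspa5 was at 18405 and 29039. Their summed value at day 2 was 150.0% of the day 1 level in wildtype and 215% in EMD -/y. Of 31 sterol and fatty acid genes, 2 were higher, among them the elongase Elovl6 (206 and 507, with a copy), and the median was 0.22.

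In energy metabolism, 2 of 38 glycolysis, glycogen, and creatine kinase genes were higher (median 0.12). Both, Gapdh (2240.3 and 9114) and Ldhb (294 and 683), have near-identical copies, so their values are uncertain. The 83 nuclear genes of the respiratory chain had a median of 0.07 with Cox7a2l higher (893 and 1803, with a copy), and none of the mitochondrially encoded genes is listed. No gene of the hypoxia list was past the threshold (median 0.05 over 20), with Ldha at 19883 and 17693 and P4ha1 at 4754 and 4872. Of 31 NRF2 genes, the secreted peroxidase Gpx3 was higher (2121 and 5360.4, median 0.06).

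The cytosolic ribosomal protein genes had a median of 0.18, with 71 of 76 above 0 and 2 past the threshold. Rpl26 was at 59.9 in wildtype and 8890.1 in EMD -/y (146-fold higher), and Rpl29 at 4678 and 9502. Both have near-identical copies elsewhere in the genome to which reads could have been assigned, so their values are uncertain.

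Interferon-response genes were the list with the lowest median (-0.29 over 49 genes), with 2 higher and 5 lower. The antiviral genes Oas2 (10.6 and 1.995) and Mx2 (74.7 and 30.6, with a copy in Mx1), the transcription factor Irf7 (416 and 194), the chemokine Cxcl9 (28.2 and 10.8), and the GTPase Gbp5 (139 and 55.00) were lower. The GTPase Irgm2 (791 and 2307) and the surface protein Ly6a (277 and 659.7) were higher. Irgm2, Gbp5, and Cxcl9 differed between tables, and for Irgm2 the same wildtype libraries gave 791, 2.96, and 143 in 3 tables, so the size of its difference is uncertain. The receptor chain Ifngr1 was at 232 and 246. In +EMD the median of the list was -1.21.

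Among 36 MHC and antigen-processing genes (median 0.03), the class II genes H2-Ab1 (93.6 and 219) and H2-Eb1 (129 and 281) were higher. The class I-like genes H2-Q1 (351 and 4.101, 68.9-fold) and H2-T10 (1538 and 136, 11.2-fold) were lower, and H2-Q1 has a copy in H2-D1. H2-T10 was not among the genes searched for copies or overlaps, so its value may be uncertain as well. Of 31 cytokine and chemokine genes, osteoprotegerin (Tnfrsf11b, 2.96 and 16.8, uncertain between tables) was higher and the median was -0.04.

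Positional identity genes differed in both directions. Of 44 Hox and related homeobox and T-box genes, 5 were higher and 5 lower (median -0.22, or -0.0178 without members that have a copy or overlap and -0.11 with a pseudocount of 10). Lbx1, a regulator of migrating limb muscle precursors, was at 4.18 in wildtype and 277 in EMD -/y (53.6-fold higher), Meis2 at 118 and 509, Tbx1, a regulator of head muscle, at 90.5 and 344, Hoxc8 at 6.31 and 51.4, and the somite gene Meox1 at 5.64 and 13.1. In the other direction, Hoxb2 was at 35.7 and 2.97, Hoxb3 at 75.7 and 10.2, Hoxb4 at 86.9 and 11.8, Hoxb7 at 15.02 and 1.81, and Hoxa2 at 14.5 and 4.76. The 9 listed Hoxb genes summed to 223 in wildtype and 30.9 in EMD -/y. Hoxb2, Hoxb3, and Hoxa2 overlap other transcripts, and Hoxb3 and Hoxb4 differed between tables, so these values are uncertain. The same wildtype libraries gave Lbx1 2.35 and 3.40 in other tables, so the size of its fold is uncertain. Lbx1 and the Hoxb genes had the same direction at days 0 and 1.

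Both lines expressed Y-linked genes, and Xist is not listed. Ddx3y was at 2051 and 1909, and Uty at 653 and 636. Eif2s3y, the Y-linked gene of a translation initiation factor subunit, was instead at 22.3 in wildtype and 1595 in EMD -/y (68.5-fold higher), with log2 ratios of 6.33 at day 0 and 6.12 at day 1. Its day 2 wildtype values differed slightly between tables, so its size is uncertain, with 22.3 and 20.9 in 2 of them. Over the 6 listed Y-linked genes, 1 was higher and the median was -0.07. Of 57 replication-dependent histone genes, 1 was higher and 4 were lower (median -0.02). H2bc21 was at 26.5 and 55.1, H2bc18 at 41.1 and 2.15, and H3c4 at 11.1 and 3.78. H2bc23 and H4bc24 were both at 28.8 and 3.57, with identical values in the table. All but H2bc21 have a copy or an overlapping transcript and are uncertain, and poly(A) RNA holds few of their transcripts.

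The largest differences are given next for genes with a plain name and a higher value of at least 100. After Emd, the largest falls were in Eno1b, a copy of enolase 1 (3229 and 12.3, uncertain because of Eno1), the DNA sensor family member Ifi202b (721 and 2.83), and Steap1, a membrane protein of the metalloreductase family. Steap1 went from 22565 in wildtype to 282 in EMD -/y (79.8-fold lower), with the highest wildtype value of these genes. The SLAM family receptor Cd84 was at 368 and 5.03, the phosphatase Ptprv at 555 and 16.4, the adhesion scaffold Cass4 at 493 and 17.7, and the ferric reductase Cybrd1 at 231 and 10.99. Tcfl5 (123 and 3.77), Hmga1b (524 and 32.3), and the GTPase Gbp2b (278 and 14.1) completed the list with genes named above. Cass4 and Tcfl5 overlap other genes, Hmga1b has a copy in Hmga1, and Cybrd1 and Gbp2b differed between tables. For Gbp2b the same EMD -/y libraries gave 14.1 here and 0.147 in the table of days 1 and 2, so the size of its fall and its place among the largest falls are uncertain. The genes of the largest falls were also below wildtype in +EMD. There Steap1 was at 200, Cd84 at 5.57, Ptprv at 88.7, Ankrd2 at 304, and Myh2 at 21.5.

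The largest rises, besides Rpl26, Eif2s3y, and Lbx1, were in Aff2, a transcription elongation factor gene (4.01 and 288), and the adhesive phosphatase Ptprm (5.34 and 344). In +EMD they were at 4.87 and 15.95. Folr1, a folate receptor, was at 5.603 and 234, the receptor Cd300c at 2.08 and 101, and the adenylyl cyclase Adcy1 at 29.4 and 525. Myo18b, an unconventional myosin needed for sarcomere assembly, was at 92.1 and 1899 (20.4-fold higher), and at 24.97 in +EMD. The unconventional myosin Myo7a (35.7 and 813), the neural splicing regulator Srrm4 (4.55 and 113), and the pentraxin receptor Nptxr (8.399 and 106, overlapping Npcd) were also higher. The importin Kpna2 (39.8 and 1518) and the DNA sensor family members Ifi211 (8.997 and 453) and Mndal (5.98 and 124) are the rest, of which Kpna2 and Ifi211 have copies. Ifi211 was also marked as overlapping Mndal, although the gene coordinates used here place them apart. Most of these genes were high in +EMD as well, with Lbx1 at 552, Folr1 at 463, Adcy1 at 703, Myo7a at 578, Kpna2 at 2244, and Eif2s3y at 1219, whereas Aff2, Ptprm, Srrm4 (18.6), and Myo18b were nearer to wildtype.

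Some differences were largest at day 2, here among genes with a plain name and a higher value of at least 100. Among these higher genes, those whose log2 ratio most exceeded the nearer of days 0 and 1 were Pttg1, Nptxr, Mki67, Pclaf, Ccna2, Hmmr, Ckap2l, Cd300c, Nusap1, and Ccnb1, of which all but Nptxr and Cd300c are genes of S phase or mitosis described above. Among the lower genes under the same limit, Ptprv had log2 ratios of -2.84 at day 0, -2.98 at day 1, and -4.99 at day 2, and Cybrd1 -0.34, -2.84, and -4.27. The α-tubulin gene Tuba1c was at 5127 and 759, with a day 1 ratio of -1.11 and several copies. The muscle inositol phosphate kinase Ip6k3 was at 458 and 168 and its log2 ratio went from 0.70 at day 0 to -1.44 at day 2. The laminin receptor Bcam (1757 and 609), the carboxypeptidase Cpz (160.2 and 66.7), and the small GTPase gene Arl5c (149.7 and 71.2) followed, beside Cd84, Steap1, and H2-T10.

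**Figure D3:**
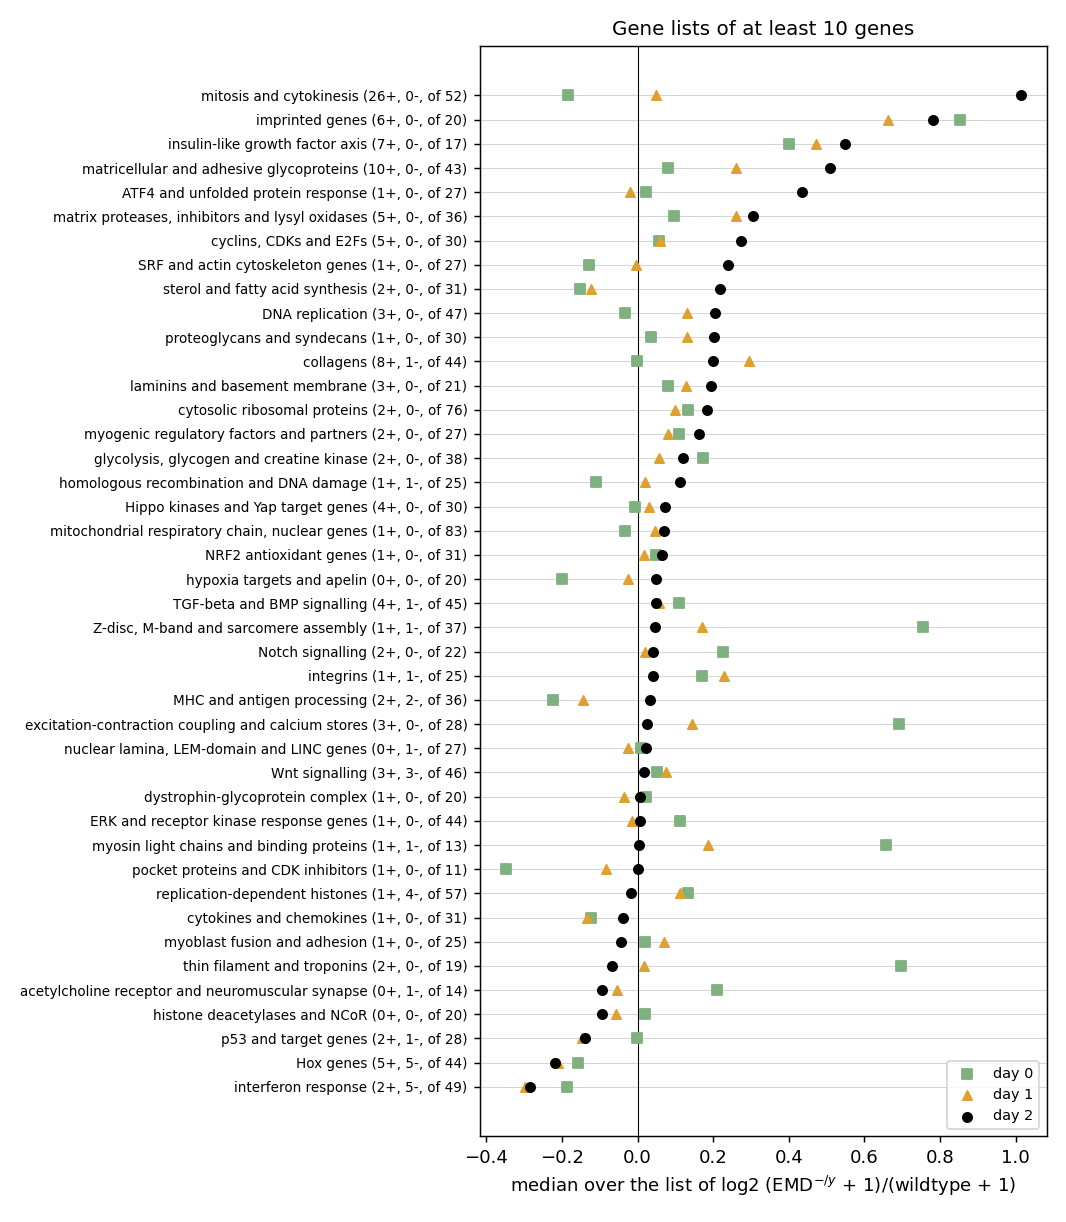
Median log2 ratio of EMD -/y to wildtype (x axis, each value plus 1) for the lists of at least 10 genes, with the number higher, lower, and listed beside each name, at day 0 (squares), day 1 (triangles), and day 2 (circles). The mitosis list stands highest at day 2 with 1.01, imprinted genes follow with 0.78, and the interferon response is lowest with -0.29.

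Predicted genes, which the table lists under no known gene name, made up 1532 of the 17557 genes. Of these, 60 (3.92%) were higher and 152 (9.92%) lower, against 3.54% and 1.398% of the 16025 other genes, so 152 of the 376 lower genes were predicted. At a log2 ratio of -8 or less there were 15 genes, 13 of them predicted, and at -4 or less 68 genes, 51 of them predicted. The largest rise of the table was in a predicted gene, at 3.36 in wildtype and 27783 in EMD -/y. Genes with a near-identical copy or an overlapping transcript were looked for among the 15943 genes with a known transcript, which leaves out the predicted genes. They made up 99 of the 566 higher genes searched (17.5%), 68 of the 215 lower genes searched (31.6%), and 21.1% of all genes searched.

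The placed genes were also read in order along each chromosome, and clustering was not tested. In 2 stretches at least 7 of 10 neighbouring genes that passed the filter were past the threshold, against 6.36% of the 12386 placed genes that passed it. The first, chr1:172458569-175692901, held 18 genes, 7 higher and 5 lower, and includes the Ifi200 family of DNA sensors, whose 11 listed members summed to 2840.4 in wildtype and 1308 in EMD -/y. The second, chr18:37674335-37841873, held 13 γ-protocadherin genes, 10 higher and 2 lower. All 22 listed γ-protocadherins have a near-identical copy or an overlapping transcript, so their single values are uncertain, and their sum was 9008 in wildtype and 9685 in EMD -/y.

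Markers of other cell types were then read in both groups. The 13 muscle lineage markers were all listed and summed to 567780.0 in wildtype and 681690.0 in EMD -/y, with 2 higher (Pax7 and Actc1) and Myh3 the most abundant. Of 15 fibroblast markers 3 were higher (Col1a1, Ly6a, and Osr2, at 3.39 and 10.5), with a summed value of 23511 and 35909, Col3a1 the most abundant (13688 and 19711), and the defining marker Pdgfra at 26.7 and 15.02. Of 12 smooth muscle and pericyte markers 3 were higher, namely Cspg4, the channel regulator Abcc9 (518 and 1660.0), and Rgs5 (9.18 and 37.9), while the sum was 150818 and 146786 and Acta2, the most abundant, was at 86976 and 77229. The part of these cells in the matrix results was not tested. The median log2 ratios were -0.01 for muscle, 0.26 for fibroblast, and 0.54 for pericyte markers, or 0.39 for fibroblast and 0.67 for pericyte markers without members that have a copy or overlap.

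Blood, vessel, fat, and epithelial cells left little trace. The 8 listed endothelial markers summed to 39.02 and 47.3, with Vwf at 16.3 and 18.1, Cdh5 at 6.21 and 8.91, and Pecam1 at 1.56 and 1.49. The 9 blood cell markers summed to 261 and 212, nearly all from Itgam (234 and 187), which overlaps a gene model, while Cd68 was at 20.6 and 14.1 and Ptprc at 0.158 and 0.173. The 4 adipocyte markers summed to 125 and 93.9, with Cebpa the most abundant (119.5 and 84.9), Pparg at 4.19 and 7.898, and Adipoq not listed, and the 7 epithelial markers to 70.7 and 122, with Krt19 the most abundant (53.8 and 106), Cdh1 at 5.76 and 7.07, and Epcam at 0.571 and 0.757. None of these 4 lists had a gene past the threshold. The 9 neural markers summed to 179 and 456, through the tubulin gene Tubb3 (106 and 388), the 1 higher member, with Sox10 not listed. The 11 bone, cartilage, and tendon markers had none past the threshold and summed to 2137 and 2435, mostly from the tendon factor Scx (1269 and 1607) and the cartilage factor Sox9 (256 and 388). The medians were 0.30 for endothelial, 0.04 for blood, 0.16 for adipocyte, 0.16 for epithelial, 0.17 for neural, and 0.05 for bone, cartilage, and tendon markers. These medians rest on few genes, and with a pseudocount of 10 they were 0.11 for endothelial, 0.0230 for adipocyte, 0.0253 for epithelial, and 0.0253 for neural markers. The adipocyte median was 0.40 with a pseudocount of 0.1, and the bone median 0.18 without members that have a copy or overlap.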

How the data were processed

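Poly(A) RNA of H2K myogenic progenitors was sequenced by BGI, and per the labels and methods the authors trimmed reads with SOAPnuke, aligned them to mm10 with HISAT2, and normalised and compared groups with DESeq2, without stated versions. The deposited table holds 1 signal value per gene and group, a normalised count that pools 3 labelled replicates, and the depth per library is unknown. Its columns of the authors' fold changes, p-values, and calls hold the findings of the study and were not used. From the 27 deposited tables, 6 were used here, namely wildtype against EMD -/y on days 0, 1, and 2, day 1 against day 2 within each line, and +EMD against wildtype at day 2, and 21 were not analysed here.

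The log2 ratio was log2 of (EMD -/y + 1)/(wildtype + 1). A gene was past the threshold at 2-fold with a higher value of at least 10. No test was run, since the columns used hold only group values. Genes were described by 54 lists through counts and medians over all listed members, beside those over all genes. The members and lists were chosen with earlier results of these data known. Named genes are Emd; in each list up to 5 past the threshold in each direction, else the 2 with the highest mean; the 15 largest rises and 15 largest falls with a plain name and a higher value of at least 100; the 10 in each direction whose day 2 ratio most exceeds the nearer of days 0 and 1; and genes the study text names. The limits of a plain name and a higher value of at least 100 also applied to these 10 in each direction. Not every gene under this rule is given. Other genes with values outside this rule, among them Bub3, Ccnd3, Rb1, Myog, Lmna, and members of the positional blocks, were chosen after their values were seen.

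A near-identical copy is at least 200 bases at 97% identity in another gene (minimap2 2.31-r1302). A value was uncertain between tables when the same libraries differed by more than 0.2 on the log2 scale after the median shift between tables. Differences in group values below 10 were not marked, and some were larger. Examples are the wildtype values of Kcnj2, Lbx1, Cd300c, and Col6a6 and the EMD -/y value of Ifi202b, so the sizes of these folds are uncertain too. Coordinates, lengths, and promoters came from RefSeq with GRCm38.p6, and histone names were matched by synonym. The calling step was tested on simulated data. Python 3.11.15, numpy 2.4.6, pandas 2.3.3, and matplotlib 3.10.9 were used. The alternatives were the pseudocount, the scaling, the filter on low values, the fold, and leaving out predicted genes, genes with copies or overlaps, or genes that differ between tables.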

Additional observations from a re-analysis of the deposited data

How the results depend on the processing

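No paired analysis was possible because the tables hold only group values, and for the same reason no replicate could be left out in turn. No named gene past the threshold changed direction under the pseudocounts and scalings tried. With both groups scaled to the same total, 13 list medians, at most 0.05 from 0 as reported, changed sign, so no direction is drawn from them. Under a pseudocount of 0.1 the adipocyte marker median was 0.40, and under a pseudocount of 10, which shrinks the ratios of low values by construction, 443 genes were higher, 242 lower, and the medians were 0.82 for mitosis, 0.53 for imprinted genes, -0.11 for Hox genes, 0.11 for endothelial, 0.0230 for adipocyte, 0.0253 for neural, and 0.0253 for epithelial markers. With a higher value of at least 100, which admits fewer genes, 284 genes were higher, 170 lower, and 13 of the mitosis list higher. At 1.5-fold 1303 were higher and 787 lower, and at 3-fold 259 and 183, with 12 of the mitosis list higher. Without predicted genes 224 were lower. The next 2 alternatives were chosen after seeing the data. Without genes that have a copy or overlap, the medians were 0.0863 for myosin heavy chains, 0.0794 for cyclins, CDKs, and E2Fs, 0.00283 for homologous recombination, 0.73 for the IGF axis, 0.66 for imprinted genes, -0.0178 for Hox genes, 0.39 for fibroblast, 0.67 for pericyte, and 0.18 for bone markers, and the pericyte median was 0.41 without genes that differ between tables. The cause was not tested. Leaving out copies and overlaps also changed the sign of 3 list medians, at most 0.02 from 0 as reported. Of the 155 named genes past the threshold, 155 were still past 2-fold under a pseudocount of 0.1, 130 under 10, 145 with both groups scaled to the same total, and 154 with the median ratio set to 0.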
